A study of Mus musculus with 13 samples.

Results

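Autophagy machinery and cargo receptors were followed here as 47 genes in nascent RNA captured from mouse kidney, chosen by gene symbol and spanning the initiation complex, the lipid kinase complex, lipid transfer, conjugation, the Atg8 family, cargo receptors, fusion with the lysosome and mitochondrial receptors. All 47 were among the 35013 genes of the deposited table, and all 47 were among the 16468 genes with enough counts to be tested. The mice behind the 13 libraries carried a tamoxifen-inducible Cre inserted at the megalin stop codon (Megalin3'Cre-Ert) with a floxed Uprt allele. They received tamoxifen and then 4-thiouracil to tag RNA made in a 4-h window. The paper's methods report equal responses in both sexes and name female C57Bl6 mice, without assigning sex or strain to these libraries. Ages were not given in the sources used here. The 4 libraries labelled Spns1 KO came from mice in which both Spns1 alleles were floxed. The 5 WT libraries came from mice with a single floxed Spns1 allele, a genotype that the sample labels call Spns1 WT. The 4 FeO libraries had the genotype of WT and came from mice given 12 mg of elemental iron as iron sucrose on each of 3 days and euthanized 1 week later. Megalin is made by the proximal tubule, so the driver was aimed at that segment. The labels do not state that each library is a separate mouse, so p-values measure the spread between libraries.

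Autophagy encloses cytoplasm in a double membrane that closes into an autophagosome and fuses with a lysosome. The Ulk1 complex starts the process, a lipid kinase complex around Becn1 marks the membrane with phosphatidylinositol 3-phosphate (PI3P), and Atg2 and Atg9 proteins supply lipid. Conjugation enzymes then attach Atg8 family proteins to the membrane, where cargo receptors dock. In the proximal tubule, a segment rich in mitochondria and lysosomes, autophagy is known for clearing damaged organelles. Spns1 is a lysosomal transporter of lysophospholipids.

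Many genes of autophagy and lysosomes carry an E-box, CACGTG, near their start, a sequence read by basic helix-loop-helix factors that include Tfeb. Promoter sequences in RefSeq (GRCm38.p6) were matched for 39 of the 47 genes. Rb1cc1, Becn1, Wdr45b, Atg12, Atg16l1, Map1lc3a, Epg5 and Bnip3l had no entry. The letters CACGTG, which read the same on both strands, stood in the 250 bases before the start of 5 of the 39 (12.8%) and of 6.86% of 27025 genes. The stretches of those 5 genes are shown with the E-box in capitals.
Atg3, chr16:45158710-45158788, plus strand: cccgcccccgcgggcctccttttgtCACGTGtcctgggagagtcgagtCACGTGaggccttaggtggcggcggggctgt
Atg5, chr10:44268300-44268338, plus strand: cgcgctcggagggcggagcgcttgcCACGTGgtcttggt
Atg7, chr6:114670939-114670994, plus strand: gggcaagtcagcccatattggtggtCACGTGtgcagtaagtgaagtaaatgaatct
Bnip3, chr7:138909584-138909639, minus strand: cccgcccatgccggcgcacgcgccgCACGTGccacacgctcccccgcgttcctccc
Rubcn, chr16:32868424-32868479, minus strand: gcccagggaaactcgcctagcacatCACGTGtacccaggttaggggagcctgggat

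Atg3 held a pair of E-boxes, whose first bases lay 94 and 71 bases before its start. The E-box began 14 bases before the start in Atg5, 132 in Atg7, 108 in Bnip3 and 88 in Rubcn. The RefSeq starts of Atg3, Atg7, Bnip3 and Rubcn lay inside the gene extents of the GENCODE annotation. In Atg7 and Rubcn the E-box itself also lay inside, far from the outer end. That end is at 114643097 for Atg7 and at 32877766 for Rubcn. The longer sequence TCACGTG, searched on both strands and overlapping the E-box, occurred in 3 of the 39 genes (7.69%), Atg3, Atg7 and Rubcn, and in 3.58% of all genes. An antioxidant response element written as TGACNNNGC, also searched on both strands, occurred in 3 genes (7.69%), Atg13, Tax1bp1 and Ulk2, against 11.5% of all genes. These are matches of letters and do not show binding.

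Total counts ranged from 23068023 to 71296474 per library, and the members held between 174 counts (Atg101) and 56027 counts (Gabarapl1) in a library. Levels are given as CPM, counts divided by the TMM-scaled size of their library and expressed on a common scale. The targeted gene, Spns1, did not separate the groups, at 36.6 to 59.0 CPM in Spns1 KO, 39.2 to 62.9 in WT and 39.0 to 58.7 in FeO. The overlap of Spns1 KO with WT rested on Spns1 KO 4, at 59.0 CPM, and WT 4, at 39.2 CPM. Spns1 KO 1 to 3 were at 39.0, 44.5 and 36.6 CPM, and WT 1, 2, 3 and 5 at 57.2, 61.4, 57.6 and 62.9 CPM. The Spns1 log2 fold change in Spns1 KO against WT was -0.31 (edgeR adjusted p = 0.225). After removal of a length and GC trend it was -0.54 (edgeR adjusted p = 0.026), where it was called lower. The floxed allele loses exon 3, whereas the count covers the whole gene. No count per exon was made, and whether this bears on the overlap was not tested. The authors report loss of Spns1 RNA in the proximal tubule of knockouts made with this driver. Directions given for Spns1 KO refer to libraries labelled that way. Proximal tubule markers were well above 0, but so were markers of other kidney cells. The summed level of the 10 proximal tubule markers was 9847 to 10988 CPM in Spns1 KO, 3332 to 4585 in WT and 2139 to 9163 in FeO, and 7 of the 10 were called higher in Spns1 KO. For 10 markers of the loop, distal tubule and collecting duct it was 3516 to 4578, 2010 to 4511 and 2249 to 5729 CPM. For 6 leukocyte and macrophage markers it was 181 to 227, 75.3 to 94.2 and 106 to 255 CPM. In podocytes (4 markers) it was 225 to 284, 155 to 276 and 276 to 630 CPM, in endothelium (5 markers) 248 to 270, 190 to 235 and 162 to 283 CPM, and in fibroblasts (4 markers) 85.1 to 126, 47.9 to 77.6 and 40.4 to 97.1 CPM. No marker was at 0 in every library. The part of these shifts in the results below was not tested, and fewer cells of a type and less RNA per cell cannot be told apart.

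Calls against WT ran in both directions. The Atg8 family, the mitochondrial receptors with Pink1, the SNARE Vamp8 and several conjugation enzymes were higher than in WT in 1 or both models, whereas Ulk1, Atg14, Atg2b and Epg5 were lower in both. Calls were made with edgeR's quasi-likelihood test, fitted once to the 13 libraries together, at a Benjamini-Hochberg adjusted p under 0.05 over all genes tested and a log2 fold change beyond 0.5. In the libraries labelled Spns1 KO, 8 of the 47 genes were higher than in WT (17.0%), where the share of all genes tested was 14.0%. Lower genes numbered 5 (10.6%), where the share of all genes was 7.55%. The 5 lower genes were the less stable set, with 1 left without Spns1 KO 1, 2 or 3 or WT 3 or 4, 2 without WT 1, 2 or 5 and 3 without FeO 4, and 0 when every gene with a count was tested. The 8 higher genes became 5 without Spns1 KO 1 or 3. Without Spns1 KO 4 the counts were 10 higher and 6 lower. Counts from fits without a library, here and below, were not set beside the share of all genes called in those fits. They therefore show no excess over it. In FeO, 18 genes were higher (38.3%) and 7 lower (14.9%), against 22.4% and 19.7% of all genes, and without FeO 3 the lower genes numbered 4. Over the 47 genes the median log2 fold change was -0.06 for Spns1 KO and 0.22 for FeO, and over all genes -0.05 and -0.01. By ranges, 4 genes in Spns1 KO had every library above every WT library and 8 had every library below, against 13.1% and 9.38% of all genes. In FeO these numbers were 13 and 6, against 16.9% and 16.4%.

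**Figure D1:**
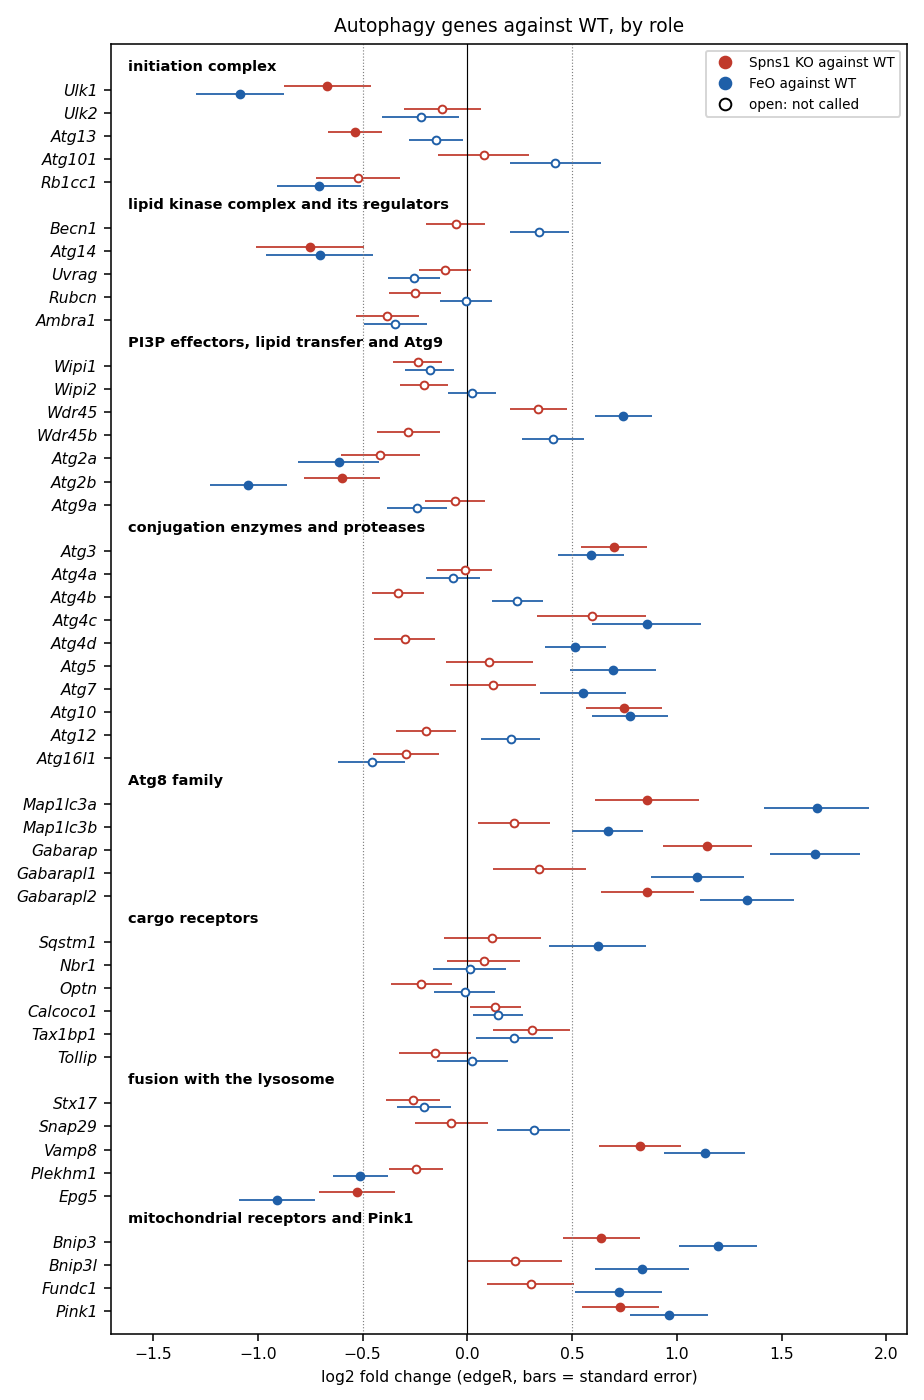
The horizontal axis gives the log2 fold change of each of the 47 genes against WT, with the standard error as a bar, for Spns1 KO (red, n = 4) and FeO (blue, n = 4) against the same 5 WT libraries. Filled points passed both limits and dotted lines mark 0.5 in either direction. The Atg8 genes and the mitochondrial receptors lie to the right of 0 in both models.

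The same WT libraries served both comparisons, so their calls are given side by side. Genes higher in both were Atg3, Atg10, Map1lc3a, Gabarap, Gabarapl2, Vamp8, Bnip3 and Pink1, and genes lower in both were Ulk1, Atg14, Atg2b and Epg5. Wdr45, Atg4c, Atg4d, Atg5, Atg7, Map1lc3b, Gabarapl1, Sqstm1, Bnip3l and Fundc1 passed as higher in FeO without passing in Spns1 KO. Rb1cc1, Atg2a and Plekhm1 passed as lower in FeO, and Atg13 passed as lower in Spns1 KO. The other 21 genes passed in neither model, and no gene was called in opposite directions.

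The fold changes followed transcript length. Across the 47 genes, Pearson's r between the log2 fold change and the log of transcript length was -0.77 in Spns1 KO and -0.80 in FeO (Spearman's rho -0.77 and -0.78). Over 16187 genes with a known length the same r was -0.35 and -0.37. These are correlations across genes measured in the same libraries, given as a description, and genes are not independent replicates. The median transcript length was 3338 bases for the 47 genes and 3056 for all. When a smooth dependence on length and GC content was taken out of each library, 5 genes stayed higher in Spns1 KO (Atg3, Atg10, Gabarap, Gabarapl2 and Vamp8) and 1 lower (Ulk1). In FeO 16 genes were then higher and 3 lower. Becn1 joined the higher genes while Wdr45, Atg3 and Sqstm1 left them. Of the 7 lower genes Ulk1 and Atg2b stayed, while Atg16l1 joined the lower genes. These trend-removed counts were not set beside the share of all genes called in the same way, so they show no excess over it. With the trend removed, Spns1 KO had a median log2 fold change of 0.041 over the 47 and 0.00015 over all genes. For FeO the medians were 0.28 and 0.035.

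**Figure D2:**
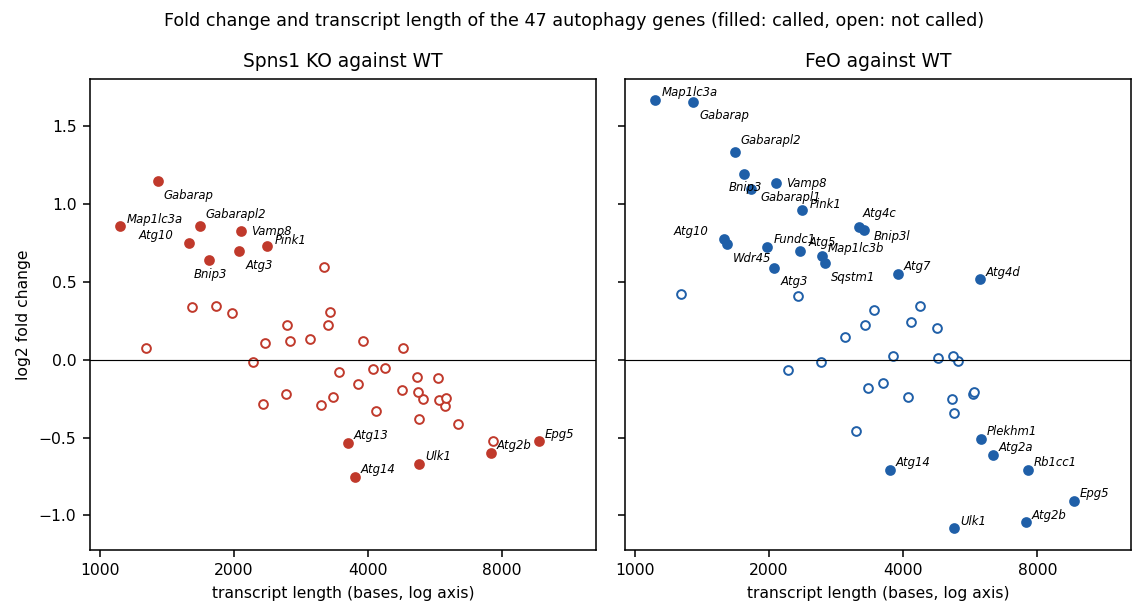
Each point is 1 of the 47 genes, with transcript length in bases on a log axis and the log2 fold change against WT on the vertical axis, for Spns1 KO (left) and FeO (right). Short transcripts such as Map1lc3a and Gabarap lie at the top and long ones such as Atg2b and Epg5 at the bottom, with r of -0.77 and -0.80.

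In the initiation complex, which receives nutrient and energy signals, 2 of 5 genes were lower in each model and none was higher. Ulk1, the kinase of the complex (chromosome 5 from 110784488 to 110810097, minus strand, GRCm38 for this and later positions), was at 149, 149, 138 and 271 CPM in Spns1 KO 1 to 4. In WT 1 to 5 it was at 288, 304, 282, 266 and 262 CPM, and in FeO 1 to 4 at 110, 175, 117 and 128 CPM. The library labelled Spns1 KO 4 sat inside the WT range while the other 3 lay below it, and every FeO library lay below every WT library. Mean levels were 281 ± 17.0 CPM (SD) over the 5 WT libraries and 132 ± 29.4 CPM (SD) over the 4 FeO libraries, a log2 fold change of -1.08 ± 0.21 (SE, edgeR adjusted p = 0.00119). In Spns1 KO the log2 fold change was -0.67 ± 0.21 (SE, edgeR adjusted p = 0.0307). That call was lost without any of Spns1 KO 1 to 3 or any WT library. Atg13, the regulatory subunit that binds Ulk1 (chromosome 2 from 91674618 to 91710576, minus strand), was at 59.1, 54.9, 56.9 and 65.7 CPM in Spns1 KO. It was at 84.8, 89.2, 80.5, 88.0 and 86.4 CPM in WT and at 89.2, 84.0, 72.8 and 63.6 CPM in FeO. Every library labelled Spns1 KO lay below WT, with a log2 fold change of -0.54 ± 0.13 (SE, edgeR adjusted p = 0.00885), which held in all 13 leave-one-out fits and fell short of the fold limit, at -0.47, with the length and GC trend removed. In FeO the Atg13 log2 fold change was -0.15 ± 0.13 (SE, edgeR adjusted p = 0.353). Rb1cc1, the scaffold also called FIP200, was at 109 to 133 CPM in FeO and 147 to 282 in WT, a log2 fold change of -0.71 (edgeR adjusted p = 0.011), which turned to 0.068 and was no longer called with the trend removed. Ulk2 and Atg101 had log2 fold changes of -0.12 and 0.08 in Spns1 KO and of -0.22 and 0.42 in FeO, none past the limits.

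In the lipid kinase complex and its regulators a single gene of 5, Atg14, was lower in each model. It is the subunit that directs the kinase to autophagy (chromosome 14 from 47540893 to 47570649, minus strand) and was at 16.9, 18.4, 14.4 and 26.9 CPM in Spns1 KO. It was at 34.3, 34.0, 30.3, 26.9 and 35.7 CPM in WT and at 11.1, 32.5, 17.0 and 18.5 CPM in FeO. Spns1 KO 4 came within a fraction of a CPM of the lowest WT library, and FeO 2 lay inside the WT range. For this gene the log2 fold change was -0.75 ± 0.26 in Spns1 KO (SE, edgeR adjusted p = 0.0449) and -0.71 ± 0.26 in FeO (SE, edgeR adjusted p = 0.0354). For Spns1 KO it did not survive leaving out any of Spns1 KO 1 to 3, any WT library or FeO 4. The FeO call was lost without WT 1, 2, 3 or 5 or FeO 1, 3 or 4, and neither stayed when the length and GC trend was taken out. Ambra1, a scaffold that brings Becn1 to the complex (chromosome 2 from 91730134 to 91918849, plus strand), was at 80.3, 67.7, 74.8 and 73.5 CPM in Spns1 KO. It was at 89.7, 88.9, 106, 109 and 90.1 CPM in WT and at 73.4, 100, 70.2 and 60.8 CPM in FeO. The libraries labelled Spns1 KO all lay below WT, although the log2 fold change of -0.38 ± 0.15 (SE, edgeR adjusted p = 0.0766) did not pass. In FeO it was -0.34 ± 0.15 (SE, edgeR adjusted p = 0.0736). Becn1 itself had log2 fold changes of -0.06 and 0.34, Uvrag -0.11 and -0.25 and Rubcn, an inhibitor of the complex, -0.25 and -0.01 in Spns1 KO and FeO. Counts of Becn1 are uncertain, because 40.04% of its 31-base stretches are found in other genes too, of which Cntd1 shares the most.

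Among 7 genes for PI3P effectors, lipid transfer and Atg9, 1 was lower in Spns1 KO, and in FeO 1 was higher and 2 were lower. Atg2b, which moves lipid into the growing membrane (chromosome 12 from 105616136 to 105685211, minus strand), was at 90.9, 87.3, 78.0 and 132 CPM in Spns1 KO. It was at 140, 143, 163, 163 and 125 CPM in WT and at 69.2, 92.6, 57.2 and 65.7 CPM in FeO. Spns1 KO 4 again lay inside the WT range, and all FeO libraries lay below it. As a log2 fold change this was -0.60 ± 0.18 in Spns1 KO (SE, edgeR adjusted p = 0.027), a call lost without Spns1 KO 1, 2 or 3 or WT 3 or 4. In FeO it was -1.05 ± 0.18 (SE, edgeR adjusted p = 0.000726). With the length and GC trend removed these values were -0.29 and -0.55. Its paralog Atg2a had log2 fold changes of -0.41 in Spns1 KO and -0.61 in FeO, of which the FeO value passed (edgeR adjusted p = 0.0176). That call was lost without FeO 3 and, at -0.25, with the trend removed. Wdr45, a PI3P-binding propeller protein of the WIPI family (chromosome X from 7714333 to 7728206, plus strand), was at 46.0, 35.8, 40.9 and 35.1 CPM in FeO. It was at 24.1, 24.7, 20.2, 22.1 and 26.7 CPM in WT and at 31.9, 29.2, 32.2 and 25.8 CPM in Spns1 KO. All FeO libraries lay above all others, with a log2 fold change against WT of 0.74 ± 0.14 (SE, edgeR adjusted p = 0.000874), or 0.33 with the trend removed. In Spns1 KO it was 0.34 ± 0.14 (SE, edgeR adjusted p = 0.0821). Wipi1, Wipi2 and Atg9a, the last a membrane protein that scrambles lipids, ranged in log2 fold change from -0.24 to 0.02 over both models.

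Among 10 conjugation enzymes and proteases, 2 were higher in Spns1 KO and 6 in FeO, and none was lower. Atg3, the E2-like enzyme that passes Atg8 proteins to lipid (chromosome 16 from 45158785 to 45188538, plus strand), was at 48.7, 44.2, 44.8 and 33.3 CPM in Spns1 KO. It was at 27.8, 26.6, 25.2, 25.4 and 26.8 CPM in WT and at 37.7, 29.9, 51.8 and 39.5 CPM in FeO. No library of either model overlapped WT. On the log2 scale the change was 0.70 ± 0.16 in Spns1 KO (SE, edgeR adjusted p = 0.00624), which held in all 13 leave-one-out fits. In FeO it was 0.59 ± 0.16 (SE, edgeR adjusted p = 0.00769) and was lost without FeO 3. Atg10, the E2-like enzyme for Atg12 (chromosome 13 from 90935356 to 91223968, minus strand), was at 10.2, 12.0, 11.6 and 14.2 CPM in Spns1 KO. It was at 6.70, 7.55, 6.24, 6.75 and 8.49 CPM in WT and at 12.9, 8.37, 12.8 and 15.0 CPM in FeO. FeO 2 lay inside the WT range and the other 7 libraries of the models lay above it. Against WT the log2 fold change was 0.75 ± 0.18 in Spns1 KO (SE, edgeR adjusted p = 0.00927) and 0.78 ± 0.18 in FeO (SE, edgeR adjusted p = 0.00364). Both calls held in all 13 leave-one-out fits and with the trend removed.

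Atg5, which joins Atg12 in a conjugate, was at 38.1 to 63.2 CPM in FeO and 29.2 to 33.4 in WT, a log2 fold change of 0.70 (edgeR adjusted p = 0.0135). Atg7, the E1-like enzyme of both conjugation systems, had a log2 fold change of 0.55 in FeO (edgeR adjusted p = 0.0381), and Atg4c, a protease that trims Atg8 proteins, of 0.86 (edgeR adjusted p = 0.0153). The Atg7 call was lost without WT 1, 2, 3 or 5 or FeO 1 or 3, and those of Atg5 and Atg4c without FeO 3. In Spns1 KO, Atg5, Atg7 and Atg4c had log2 fold changes of 0.11, 0.12 and 0.59, none past the limits. In all 3 genes the library labelled Spns1 KO 4 had the lowest level of its group, at 18.4, 10.4 and 11.5 CPM. Atg4a, Atg12 and Atg16l1 passed the limits in neither model, at log2 fold changes from -0.46 to 0.21. Counts of Atg4a are uncertain, because 60.8% of its 31-base stretches are found in other genes, of which Atg4a-ps shares the most.

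The 5 Atg8 family genes encode the ubiquitin-like proteins that coat the autophagosome, and all 5 were higher in FeO and 3 of 5 in Spns1 KO. Gabarap (chromosome 11 from 69991143 to 69994951, plus strand) was at 114, 112, 137 and 61.3 CPM in Spns1 KO. It was at 53.6, 49.2, 38.9, 44.1 and 54.0 CPM in WT and at 166, 106, 182 and 151 CPM in FeO. No library of either model overlapped WT, and Spns1 KO 4 was the nearest to it. Means with SD were 47.9 ± 6.45 CPM over the 5 WT libraries, 106 ± 32.0 over the 4 of Spns1 KO and 151 ± 32.6 over the 4 of FeO. The log2 fold change was 1.15 ± 0.21 in Spns1 KO (SE, edgeR adjusted p = 0.00197) and 1.66 ± 0.21 in FeO (SE, edgeR adjusted p = 0.000368). Both calls held in all leave-one-out fits, and also after trend removal, at 0.81 and 1.18.

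**Figure D3:**
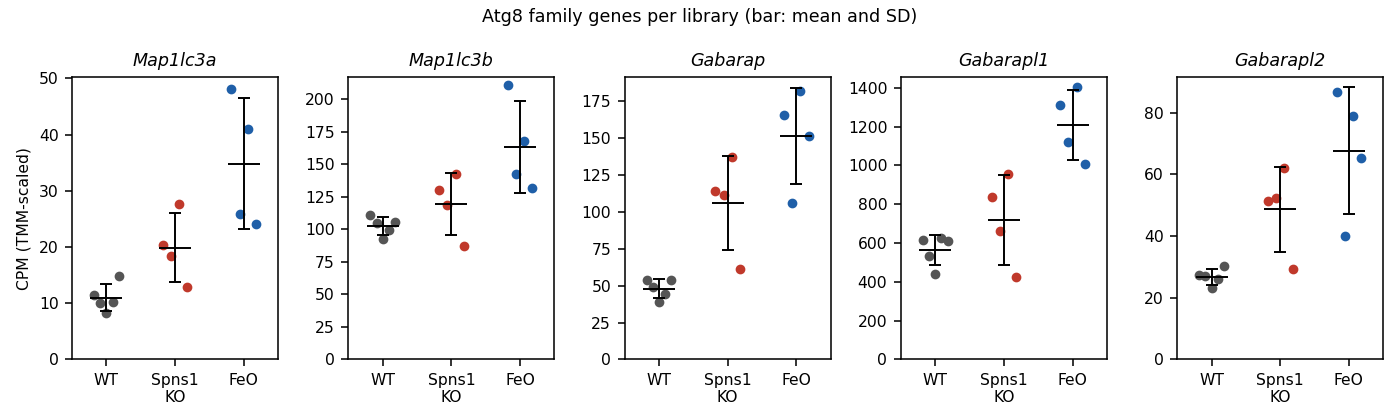
Each panel plots an Atg8 family gene in TMM-scaled CPM on an axis that starts at 0, with a point per library and the mean and SD as a bar (WT n = 5, Spns1 KO n = 4, FeO n = 4). All FeO libraries lie above all WT libraries in every panel, and the last Spns1 KO point, Spns1 KO 4, lies near or inside the WT range.

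Map1lc3a (chromosome 2 from 155276297 to 155278073, plus strand) was at 20.4, 18.4, 27.7 and 12.8 CPM in Spns1 KO, 11.5, 10.1, 8.22, 10.2 and 14.7 in WT and 48.2, 26.0, 40.9 and 24.1 in FeO. Spns1 KO 4 was inside the WT range. For this gene the log2 fold change was 0.86 ± 0.25 in Spns1 KO (SE, edgeR adjusted p = 0.0229) and 1.67 ± 0.25 in FeO (SE, edgeR adjusted p = 0.00046). Spns1 KO lost its call without Spns1 KO 1 or 3 or WT 3, and with the trend removed its value was 0.25. Gabarapl2 (chromosome 8 from 111940703 to 111953612, plus strand) was at 51.2, 52.3, 62.0 and 29.3 CPM in Spns1 KO, 27.5, 26.9, 23.2, 26.2 and 30.3 in WT and 86.7, 40.1, 78.9 and 65.3 in FeO. Here too Spns1 KO 4 was the only library of its group inside the WT range. As a log2 fold change this was 0.86 ± 0.22 in Spns1 KO (SE, edgeR adjusted p = 0.0128), lost without Spns1 KO 3, and 1.34 ± 0.22 in FeO (SE, edgeR adjusted p = 0.000617).

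Map1lc3b, the LC3B gene whose lipidated product is the usual marker of autophagosomes (chromosome 8 from 121590361 to 121598760, plus strand), was at 131, 119, 143 and 87.3 CPM in Spns1 KO. It was at 111, 105, 92.9, 99.3 and 105 CPM in WT and at 211, 143, 168 and 132 CPM in FeO. For this gene the log2 fold change was 0.22 ± 0.17 in Spns1 KO (SE, edgeR adjusted p = 0.353) and 0.67 ± 0.17 in FeO (SE, edgeR adjusted p = 0.00572). Gabarapl1 (chromosome 6 from 129533160 to 129542346, plus strand) was at 835, 660, 954 and 423 CPM in Spns1 KO. It was at 616, 533, 443, 627 and 609 CPM in WT and at 1309, 1123, 1405 and 1005 CPM in FeO. In Spns1 KO 3 libraries lay above WT and Spns1 KO 4 lay below it, with a log2 fold change of 0.34 ± 0.22 (SE, edgeR adjusted p = 0.269). Without Spns1 KO 4 it passed the limits. In FeO the log2 fold change was 1.10 ± 0.22 (SE, edgeR adjusted p = 0.00146). Another gene, 1700101I11Rik, holds 25.2% of the 31-base stretches of Gabarapl1, so its counts are uncertain. The same limit applies to Atg9a, at 32.4%, where Gm29253 shares the most. Shares were 19.4% for Wdr45, 19.3% for Uvrag, 16.5% for Atg4d, 16.4% for Sqstm1 and 15.3% for Gabarapl2.

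Per length of transcript, Gabarapl1 was the most abundant of the 47 genes in WT at 311 CPM per kb, ahead of Sqstm1 at 195 and Tax1bp1 at 99.3. Atg7 was the least abundant at 3.95. The summed level of the Atg8 family had means with SD of 411 ± 51.1 CPM per kb over the WT libraries, 565 ± 172 over those of Spns1 KO and 911 ± 145 over those of FeO. Gabarapl1 made up 75.5% ± 1.74 (SD) of the WT sum, 69.5% ± 1.91 of that of Spns1 KO and 73.2% ± 3.04 of that of FeO. The share of Gabarap ranged from 7.42% to 9.23% over WT, from 13.2% to 15.3% over Spns1 KO and from 9.85% to 14.5% over FeO, so neither model overlapped WT. Spns1 KO 4 kept this share, at 13.3%, although its summed level, 340 CPM per kb, was within the WT range of 328 to 447. The share of Map1lc3b was 9.57% ± 0.87 (SD) for WT, 8.29% ± 1.07 for Spns1 KO and 6.80% ± 0.78 for FeO.

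Cargo receptors tie ubiquitinated or otherwise marked cargo to Atg8 proteins, and of 6 genes none passed for Spns1 KO and 1 was higher in FeO. At an unadjusted p under 0.05, 10 of the 47 genes were higher and 9 lower in Spns1 KO by edgeR, where 20.2% and 16.9% of all genes were. DESeq2 called 8 higher and 6 lower, against 15.5% and 9.76% of all genes. Sqstm1, the p62 receptor (chromosome 11 from 50199366 to 50210827, minus strand), was at 578, 688, 668 and 331 CPM in Spns1 KO. It was at 606, 512, 451, 475 and 562 CPM in WT and at 846, 868, 981 and 512 CPM in FeO. FeO 4 lay inside the WT range and Spns1 KO 4 lay below it. On the log2 scale the change was 0.12 ± 0.23 in Spns1 KO (SE, edgeR adjusted p = 0.73) and 0.62 ± 0.23 in FeO (SE, edgeR adjusted p = 0.0383). The FeO call was lost without WT 2, 3 or 4 or FeO 1, 2 or 3 and with the trend removed. Tax1bp1 (chromosome 6 from 52713729 to 52766780, plus strand) was at 448, 389, 484 and 294 CPM in Spns1 KO. It was at 305, 306, 323, 366 and 330 CPM in WT and at 369, 297, 499 and 359 CPM in FeO. The groups overlapped, with log2 fold changes of 0.31 ± 0.18 (SE, edgeR adjusted p = 0.234) and 0.22 ± 0.18 (SE, edgeR adjusted p = 0.325). Nbr1, Optn, Calcoco1 and Tollip ranged in log2 fold change from -0.22 to 0.15 over both models.

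Among 5 genes for fusion with the lysosome, 1 was higher and 1 lower in Spns1 KO, and 1 was higher and 2 were lower in FeO. Vamp8, a SNARE of the lysosome side (chromosome 6 from 72385223 to 72390703, minus strand), was at 33.4, 43.1, 38.8 and 26.3 CPM in Spns1 KO. It was at 24.2, 22.0, 15.7, 14.3 and 23.7 CPM in WT and at 41.5, 36.1, 53.2 and 44.5 CPM in FeO. Every library of both models lay above WT. Against WT the log2 fold change was 0.82 ± 0.19 in Spns1 KO (SE, edgeR adjusted p = 0.00781) and 1.13 ± 0.19 in FeO (SE, edgeR adjusted p = 0.000667), and both calls held in all 13 leave-one-out fits and with the trend removed. Stx17 and Snap29, its partners on the autophagosome side, were called in neither model, at log2 fold changes from -0.26 to 0.32. Epg5, a tether, was at 27.4, 22.0, 22.3 and 38.3 CPM in Spns1 KO. It was at 34.9, 37.4, 43.8, 47.02 and 34.9 CPM in WT and at 22.6, 24.3, 17.5 and 19.9 CPM in FeO. Spns1 KO 4 was inside the WT range. The log2 fold change was -0.53 ± 0.18 in Spns1 KO (SE, edgeR adjusted p = 0.0462), a call kept without Spns1 KO 4 or FeO 3 and lost without each of the other 11 libraries. In FeO it was -0.91 ± 0.18 (SE, edgeR adjusted p = 0.00146), or -0.31 with the trend removed. Plekhm1, an adaptor that binds Rab7, had a log2 fold change of -0.51 in FeO (edgeR adjusted p = 0.00582) and -0.24 in Spns1 KO. The FeO call was lost without WT 3 or 4 or FeO 1, 3 or 4, and at -0.16 with the trend removed.

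All 4 mitochondrial genes were higher in FeO, and 2 of 4 in Spns1 KO. Bnip3, a receptor on the outer membrane (chromosome 7 from 138890836 to 138909519, minus strand), was at 158, 180, 196 and 101 CPM in Spns1 KO. It was at 95.7, 94.2, 88.3, 110 and 121 CPM in WT and at 259, 208, 259 and 207 CPM in FeO. Spns1 KO 4 was inside the WT range, and all FeO libraries lay above all others. For this gene the log2 fold change was 0.64 ± 0.18 in Spns1 KO (SE, edgeR adjusted p = 0.022), lost without Spns1 KO 1, 2 or 3 or WT 2 or 3, and 1.20 ± 0.19 in FeO (SE, edgeR adjusted p = 0.000482). Other genes, of which AC160336.1 shares the most, hold 57.0% of its 31-base stretches, so its counts are uncertain. Pink1, the kinase that marks depolarised mitochondria (chromosome 4 from 138313409 to 138326307, minus strand), was at 116, 86.7, 113 and 57.9 CPM in Spns1 KO. It was at 57.8, 58.0, 50.1, 59.9 and 55.8 CPM in WT and at 131, 88.5, 110 and 110 CPM in FeO. Spns1 KO 4 was again the only library of the models inside the WT range. As a log2 fold change this was 0.73 ± 0.18 in Spns1 KO (SE, edgeR adjusted p = 0.0115), lost without Spns1 KO 1, and 0.96 ± 0.18 in FeO (SE, edgeR adjusted p = 0.00114). With the trend removed neither Bnip3 nor Pink1 passed in Spns1 KO. Bnip3l and Fundc1, also outer membrane receptors, had log2 fold changes of 0.83 (adjusted p = 0.00817) and 0.72 (adjusted p = 0.0112) in FeO from edgeR, and of 0.23 and 0.30 in Spns1 KO. Another gene, Bnip3l-ps, holds 23.7% of the 31-base stretches of Bnip3l.

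The library labelled Spns1 KO 4 stood apart from the others of its group across these genes. It had 17 of 47 genes inside the WT range, 26 below and 4 above. Spns1 KO 1 to 3 had 8 to 11 genes inside the range, 17 to 20 below and 17 to 20 above. Among FeO libraries FeO 2 had the most genes inside the WT range, 18 of 47 (38.3%), against 7 to 10 in the others, and over all genes 38.6% lay inside it in FeO 2 and 24.2% to 32.1% in the others. Over all genes tested, 48.0% of genes in Spns1 KO 4 lay inside the WT range, against 32.3% to 36.7% in Spns1 KO 1 to 3.

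**Figure D4:**
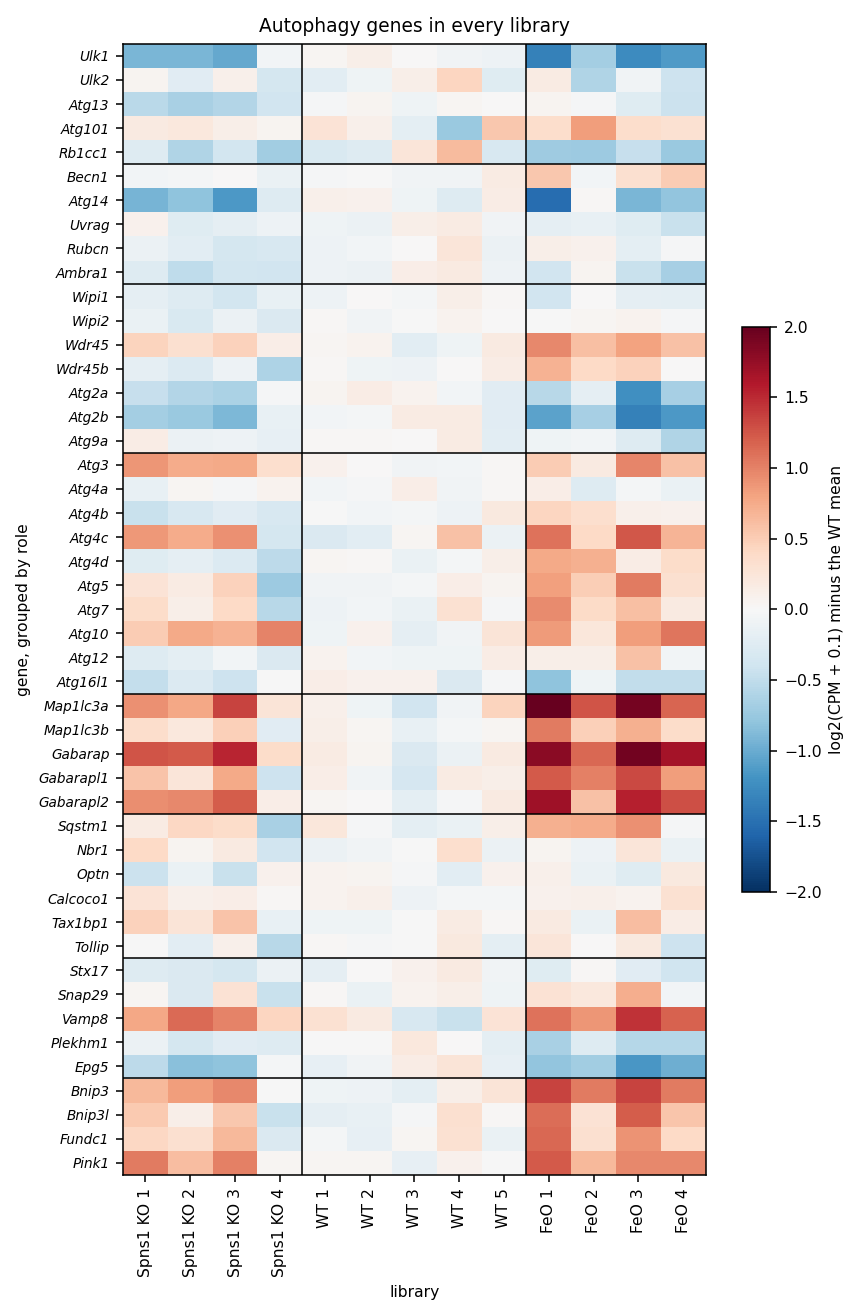
The colour gives log2(CPM + 0.1) minus the WT mean, from -2 (blue) to 2 (red), for the 47 genes (rows, grouped by role) in the 13 libraries (columns). The Atg8 family rows are red in Spns1 KO 1 to 3 and in FeO, whereas Spns1 KO 4 lies closer to WT or below it in those rows. Over the 47 genes, 26 lay below the WT range in Spns1 KO 4.

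The difference between the models was tested directly in the same fit. Of the 47 genes, 5 were lower in Spns1 KO than in FeO (10.6%) and 0 were higher by edgeR, against 8.10% and 6.76% of all genes. At an unadjusted p under 0.05 edgeR gave 14 lower and 1 higher, against 17.0% and 15.9% of all genes. DESeq2 called 6 lower and 0 higher, against 10.6% and 9.05% of all genes. The lower genes numbered 2 without FeO 1, 3 without Spns1 KO 1, 2 or 4, WT 1 or 2 or FeO 3, 8 without FeO 2 and 3 when only these 2 groups were fitted. The higher count was 1 without FeO 2. The median log2 fold change was -0.23 over the 47 genes and 0.03 over all genes. Pearson's r between the log2 fold change and log transcript length was 0.56 across the 47 genes. Over 16187 genes with a known length the same r was 0.12. Removing the length and GC trend left the same 5 genes. They were Atg4d, Wdr45b, Atg4b, Map1lc3a and Gabarapl1, and for each of the other 42 genes no difference between the models was shown, including those called in a single model.

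Atg4d, a protease of Atg8 proteins (chromosome 9 from 21265293 to 21277772, plus strand), was at 29.1, 30.3, 28.4 and 23.9 CPM in Spns1 KO. It was at 35.1, 34.7, 31.1, 33.3 and 37.3 CPM in WT and at 57.8, 56.4, 37.9 and 44.1 CPM in FeO. The 3 groups did not overlap, with Spns1 KO lowest and FeO highest. The log2 fold change of Spns1 KO against FeO was -0.81 ± 0.15 (SE, edgeR adjusted p = 0.00539). Against WT it was -0.30 in Spns1 KO (adjusted p = 0.148) and 0.52 in FeO (adjusted p = 0.00983), both from edgeR, and the FeO call was lost without WT 3 or FeO 1 or 2. Atg4b, the main protease of this family (chromosome 1 from 93751500 to 93790610, plus strand), was at 41.1, 45.3, 47.9 and 44.8 CPM in Spns1 KO. It was at 56.1, 54.3, 54.9, 52.2 and 64.3 CPM in WT and at 75.9, 70.7, 60.2 and 59.5 CPM in FeO. Spns1 KO lay below WT, while FeO overlapped WT. The log2 fold change between the models was -0.57 ± 0.13 (SE, edgeR adjusted p = 0.0116) and was lost without FeO 1. Against WT it was -0.33 (adjusted p = 0.0633) and 0.24 (adjusted p = 0.122) from edgeR.

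Wdr45b, the closest relative of Wdr45 (chromosome 11 from 121327224 to 121354445, minus strand), was at 38.0, 35.5, 39.9 and 28.0 CPM in Spns1 KO. It was at 43.6, 40.5, 40.2, 43.2 and 47.3 CPM in WT and at 69.3, 56.6, 59.1 and 43.3 CPM in FeO. Spns1 KO lay below both other groups, with a log2 fold change against FeO of -0.69 ± 0.16 (SE, edgeR adjusted p = 0.0115). Against WT it was -0.28 (adjusted p = 0.183) and 0.41 (adjusted p = 0.0343) from edgeR, neither past both limits. Calls of Atg4d and Wdr45b between the models held in all 13 leave-one-out fits. Map1lc3a differed by -0.81 ± 0.26 (SE, edgeR adjusted p = 0.0491), a call kept in 4 of 13 leave-one-out fits and lost without Spns1 KO 1, 2 or 4, WT 1, 2, 3 or 4 or FeO 1 or 3. Gabarapl1 differed by -0.75 ± 0.23 (SE, edgeR adjusted p = 0.042), kept in 6 of 13 and lost without Spns1 KO 1, 2 or 4, WT 1 or 2 or FeO 1 or 3.

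**Figure D5:**
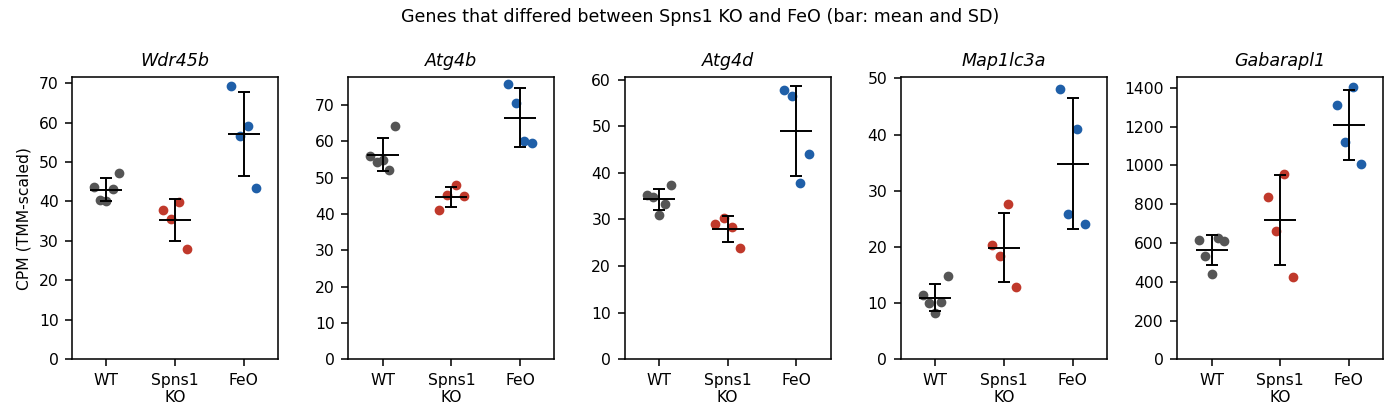
Each panel plots a gene that was lower in Spns1 KO than in FeO, in TMM-scaled CPM on an axis that starts at 0, with a point per library and the mean and SD as a bar (WT n = 5, Spns1 KO n = 4, FeO n = 4). Wdr45b, Atg4b and Atg4d lie below WT in Spns1 KO, whereas the means of Map1lc3a and Gabarapl1 lie between WT and FeO.

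A further 34 autophagy genes outside the 47 were listed for comparison, and all were tested. In Spns1 KO 3 were higher and 2 lower, and in FeO 5 were higher and 6 lower. These were 8.82%, 5.88%, 14.7% and 17.6% of the 34, each below the share of all genes (14.0%, 7.55%, 22.4% and 19.7%). Dram2, a lysosomal membrane protein, had means with SD of 53.1 ± 6.14 CPM over WT and 92.1 ± 9.83 over Spns1 KO, a log2 fold change of 0.79 (edgeR adjusted p = 0.00343). In FeO its log2 fold change was 0.47. Ccpg1, a receptor for endoplasmic reticulum, had log2 fold changes of 0.73 (edgeR adjusted p = 0.0154) in Spns1 KO and 0.38 in FeO. Rab7, the GTPase of late endosomes and lysosomes, rose in both, by 0.66 (adjusted p = 0.0189) and 0.62 (adjusted p = 0.0138) on the log2 scale from edgeR. The Spns1 KO calls of Ccpg1 and Rab7 were lost without Spns1 KO 1 or 3, and the FeO calls of Rab7 and Tex264 with the trend removed. The lower genes in Spns1 KO were Zfyve1 at -0.66 (adjusted p = 0.0196) and Trp53inp1 at -1.45 (adjusted p = 0.0264) from edgeR, both lower in FeO as well. Trp53inp1 in Spns1 KO 4, at 324 CPM, lay inside the WT range of 277 to 438. Its call was lost without Spns1 KO 1, 2 or 3 or WT 3, that of Zfyve1 without Spns1 KO 2 or 3 or WT 3, and both in Spns1 KO with the trend removed. In FeO, Tex264, a receptor for endoplasmic reticulum, had a log2 fold change of 0.79 (edgeR adjusted p = 0.001) and Phb2, an inner mitochondrial membrane receptor, of 1.02 (edgeR adjusted p = 0.00128). Wdfy3, a large scaffold for aggregates, had means with SD of 397 ± 146 CPM over WT and 166 ± 21.1 over FeO, a log2 fold change of -1.26 (edgeR adjusted p = 0.00111). Between the models 1 of the 34 was higher in Spns1 KO, Wdfy3 at 1.07 (edgeR adjusted p = 0.0126). The 2 lower were Ei24 at -0.65 (adjusted p = 0.0467) and Dram1 at -0.67 (adjusted p = 0.0468) from edgeR, calls kept in 4 and 2 of 13 leave-one-out fits and both lost with the trend removed. Zfyve1, Trp53inp1, Ei24 and Dram1 were named after their values were seen.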

How the data were processed

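The authors deposited a table of estimated counts per gene symbol for 13 libraries, without normalization; its values were whole numbers. Submitters' processing notes name bcl2fastq 2.19, kallisto 0.44.0, DESeq2 and GRCm38, whereas the methods describe STAR alignment and HTSeq counting. Low-count genes were removed with filterByExpr, counts were scaled by TMM, and 16468 genes were tested in edgeR 4.0.16 (R 4.3.3) without a replicate block. DESeq2 1.42.0 was an alternative. CPM values are TMM-scaled. Lengths, GC content and shared 31-base sequences, matched on either strand, came from GENCODE annotation of GRCm38, and the trend was fitted with mgcv 1.9.3. Each gene was given its longest transcript, with protein-coding transcripts of the basic annotation preferred, whether or not that form is the one expressed. Levels per kb, correlations with length and the trend removal rest on this choice. On simulated data, 87% (Spns1 KO), 93% (FeO) and 84% (between models) of log2 changes of 2 were recovered, and 45%, 57% and 47% of changes of 1, among 16468 genes. Far fewer genes were changed in the simulation than were called in these libraries. Members and lists were chosen with earlier results of these data known. Values per library were given for the 2 genes with the smallest p in each of 8 roles, genes called between the models, the Atg8 family and Sqstm1. Same-numbered libraries deviated together in 4 of 12 pairs (r above 0.1; range -0.30 to 0.26), so numbers were not used to pair. Results were refitted under 9 other settings and 13 fits leaving out a library.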

Additional observations from a re-analysis of the deposited data

Results flagged for a closer look

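Of 66 groups of 4 or 5 libraries examined over the 22 genes given per library, 1 held a library far from the others, where chance alone flags about 1 in 20. It was Ulk1 in the library labelled Spns1 KO 4, at 271 CPM, while the nearest of its group was at 149 and the farthest at 138 CPM.

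In the direct test of Spns1 KO against FeO, 5 of the 47 genes were called lower (10.6%), against 8.10% of all genes. The calls of Map1lc3a and Gabarapl1 were kept in 4 and 6 of 13 leave-one-out fits. With only these 2 groups fitted, 3 genes were called lower. The log2 differences were -0.69 for Wdr45b, -0.57 for Atg4b, -0.81 for Atg4d, -0.81 for Map1lc3a and -0.75 for Gabarapl1.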

How the results depend on the processing

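Over 66 gene results (22 genes in 3 comparisons), no call was reversed under the settings run. With RLE factors or DESeq2 all 35 calls were kept, with upper-quartile factors, only the 2 groups compared or the replicate block 32, with library totals alone 31, with every gene with a count 27, with the length and GC trend removed 23, and with the replicate block and trend removal together 18.

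For genes higher in Spns1 KO than in WT, 8 became 5 with the trend removed and 3 with replicate block and trend removal, and leaving out a library gave 5 to 10. For genes lower, 5 became 3 with upper-quartile factors, 0 with every gene with a count, 1 with the trend removed, 3 with the replicate block and 0 with block and trend removal, and leaving out a library gave 1 to 6. Library totals alone moved the median from -0.06 to -0.19, and that of all genes by -0.13. The same median turned to 0.041 with the trend removed, 0.023 with block and trend removal and 0.0038 with every gene with a count. The FeO median of 0.22 was 0.14 with library totals alone and 0.15 to 0.31 without a library. For genes lower in FeO, 7 became 3 with the trend removed and 3 with block and trend removal, and leaving out a library gave 4 (without FeO 3) to 8. Between the models, higher genes went from 0 to 1 without FeO 2. Lower genes went from 5 to 3 with every gene with a count and to 3 with only the 2 groups compared, and leaving out a library gave 2 (without FeO 1) to 8 (without FeO 2). These counts were not set beside the share of all genes called under the same settings, and the causes were not tested. Among the 22 genes, directions reversed for differences that were not called. Outside them, the FeO call of Rb1cc1 (-0.71) turned to 0.068 with the trend removed. Between the models, Atg14 (-0.05) was 0.0051 with the replicate block and 0.050 with block and trend removal, and -0.26 to 0.31 without a library. Atg10 (-0.03) was 0.097 with the trend removed and 0.097 with the replicate block as well, and -0.17 to 0.079 without a library. Without a library, Ambra1 ranged from -0.14 to 0.12, Atg3 from -0.0051 to 0.26 and Tax1bp1 from -0.019 to 0.24. Sqstm1 in Spns1 KO against WT was -0.0067 with library totals alone.

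The methods describe controls from littermates and mouse pairs given tamoxifen in parallel. The sources used here do not say whether replicate numbers mark these litters or pairs, and 3 of 24 cases correlated best with their own number.

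With 4 or 5 libraries a group, changes can be missed, so genes that were not called are not shown to be equal. Many log2 changes of 1 were missed in the simulation. Its shares need not hold for these libraries, because far fewer genes were changed in it than were called here.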
